A study of Mus musculus with 7 samples.

Results

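The sites described here are PU.1 peaks of osteoclasts (OCs) after 72 h of RANKL that had no counterpart in either earlier PU.1 list. A 72 h peak was taken when its score was at least 17.6, when it lay on chromosomes 1 to 19 or X, and when it overlapped no PU.1 peak of myeloid precursors (MPs) and none of the 36 h cells by 1 bp or more. Of 50607 peaks at this score, 1878 met the rule, which is 3.71% of them. The sites were thus chosen by the 72 h PU.1 score and by the PU.1 peak positions of the 3 times, so these values are given as a description and were not tested.

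The series holds 7 ChIP-Seq peak lists from mouse cells, with PU.1 and MITF at 3 stages of OC differentiation and non-specific IgG in MPs. Bone marrow of C57BLACK6 mice aged 4 to 6 weeks was cultured for 3 days in CSF1 at 50 ng/ml, and these cells are the MPs. The 36 h and 72 h cells then received RANKL at 100 ng/ml together with CSF1 at 50 ng/ml. Each PU.1 and MITF precipitation used 5 µg of antibody. All cells were of the same strain with no genetic change given, and each list comes from 1 library, so no value has a replicate error. Marrow cultures of this kind can hold other myeloid cells beside OCs, and a peak list cannot tell a site used in few cells from a weak site in all.

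PU.1, encoded by Spi1, is an ETS-family transcription factor that recognises a purine-rich sequence with a GGAA core and is needed for the formation of macrophages and OCs. It often binds next to other factors, among them AP-1 (dimers of Fos and Jun proteins, induced by RANKL), C/EBP, RUNX and the IRF proteins. MITF belongs to the helix-loop-helix proteins, recognises E-box sequences and acts with PU.1 at genes of bone resorption.

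The sequences of 11 sites show what the 72 h only set contains. The first 6 are the highest sites by score together with the 2 highest that overlapped a 72 h MITF peak, and the last 5, chosen after their values were seen, are sites with no MP or 36 h peak center within 500 bp. These are 4 of the 5 highest such sites and the one at the Mmp9 promoter. All are 151 bp of mm9 on the + strand, and capitals mark the ETS core GGAAGT or the AP-1 sequence TGANTCA, on either strand.
Upstream of Gm12148 and listed for Mir146, chr11:43198639-43198789: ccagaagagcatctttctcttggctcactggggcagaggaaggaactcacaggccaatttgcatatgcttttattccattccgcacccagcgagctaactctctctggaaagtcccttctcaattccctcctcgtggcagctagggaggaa
Intron of Grk5, chr19:61093516-61093666: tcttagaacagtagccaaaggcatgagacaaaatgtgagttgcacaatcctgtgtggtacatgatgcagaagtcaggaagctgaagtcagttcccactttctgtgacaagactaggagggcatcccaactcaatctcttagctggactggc
Intron of Nav2, listed for Dbx1, chr7:56723281-56723431: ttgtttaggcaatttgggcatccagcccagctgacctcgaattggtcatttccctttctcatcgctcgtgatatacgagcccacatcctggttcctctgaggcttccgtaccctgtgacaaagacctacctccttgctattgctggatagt
Intron of Lcp1, with MITF, chr14:75564243-75564393: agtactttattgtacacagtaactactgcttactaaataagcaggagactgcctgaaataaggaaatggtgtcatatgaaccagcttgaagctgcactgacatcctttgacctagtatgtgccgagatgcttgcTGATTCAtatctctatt
Near Klf6, chr13:5887940-5888090: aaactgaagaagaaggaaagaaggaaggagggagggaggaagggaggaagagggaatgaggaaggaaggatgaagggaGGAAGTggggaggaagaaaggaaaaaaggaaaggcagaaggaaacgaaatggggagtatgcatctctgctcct
Intron of Exoc6b, listed for Cyp26b1, with MITF, chr6:84703141-84703291: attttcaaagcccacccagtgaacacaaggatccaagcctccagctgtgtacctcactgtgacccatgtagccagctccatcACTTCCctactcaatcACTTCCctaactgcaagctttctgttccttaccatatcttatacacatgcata
Near Plcl1, chr1:55958217-55958367: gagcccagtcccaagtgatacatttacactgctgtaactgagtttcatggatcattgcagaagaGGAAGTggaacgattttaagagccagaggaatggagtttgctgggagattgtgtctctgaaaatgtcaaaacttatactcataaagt
Upstream of Phyh, chr2:4838937-4839087: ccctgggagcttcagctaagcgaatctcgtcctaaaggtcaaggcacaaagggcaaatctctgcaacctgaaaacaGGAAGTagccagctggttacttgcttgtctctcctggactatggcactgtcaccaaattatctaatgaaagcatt
Intron of Itgb5, listed for Umps, chr16:33917704-33917854: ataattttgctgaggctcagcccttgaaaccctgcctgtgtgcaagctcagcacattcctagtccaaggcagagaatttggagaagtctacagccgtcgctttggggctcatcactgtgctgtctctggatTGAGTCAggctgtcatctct
Near Ifngr2, chr16:91524305-91524455: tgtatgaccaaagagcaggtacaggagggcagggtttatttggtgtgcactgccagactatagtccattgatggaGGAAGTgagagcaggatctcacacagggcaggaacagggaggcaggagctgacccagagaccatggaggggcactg
Promoter of Mmp9, chr2:164766114-164766264: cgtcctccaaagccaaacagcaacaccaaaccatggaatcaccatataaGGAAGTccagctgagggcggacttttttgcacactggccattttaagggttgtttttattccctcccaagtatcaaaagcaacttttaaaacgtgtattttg
The Mir146, Grk5 and Nav2 sequences held neither marked motif, although they were the top sites of the set. The Lcp1 sequence held 1 AP-1 match and no ETS core, and the Exoc6b sequence held 2 ETS cores. Of the last 5 sequences, the one in Itgb5 held an AP-1 match and no ETS core and the other 4 held 1 ETS core each. As these were picked, they do not give the share in the set, which follows with the motif counts.

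The 72 h only sites were weak peaks of the 72 h list. Their scores ran from 17.6 to 154.2 with a median of 22.0, against a median of 42.6 in the 43197 sites listed at all 3 times. HOMER scores are tag counts scaled to a common library size, and here 1 tag was worth 1.4684 score units at 72 h, so the limit of 17.6 stood for 12 tags and the median site held 15 tags. Sites listed at all 3 times had a median of 29 tags. At the limit itself, 390 of 3171 peaks with 12 tags were 72 h only (12.30%), and just outside it 594 of 3605 peaks with 11 tags and a score of 16.2 were (16.48%).

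The share of 72 h peaks that were 72 h only fell with every step in tags. It was 10.96% of 5804 peaks with 12 or 13 tags (95% Wilson interval 10.18 to 11.79), 4.718% with 17 to 20 tags, 1.241% with 31 to 40 tags and 0.1803% of 8321 peaks over 60 tags. Absence from 1 other list showed the same dependence. Of 72 h peaks that were listed in MPs, 20.75% of those with 12 or 13 tags and 0.5916% of those over 60 tags had no 36 h peak. Of those listed at 36 h, 17.30% and 0.2907% had no MP peak. Among weak 72 h peaks, absence from 1 earlier list was thus common also where the other earlier list held the site. Intervals here and below cover counting error only, and neighbouring sites are not independent.

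**Figure D1:**
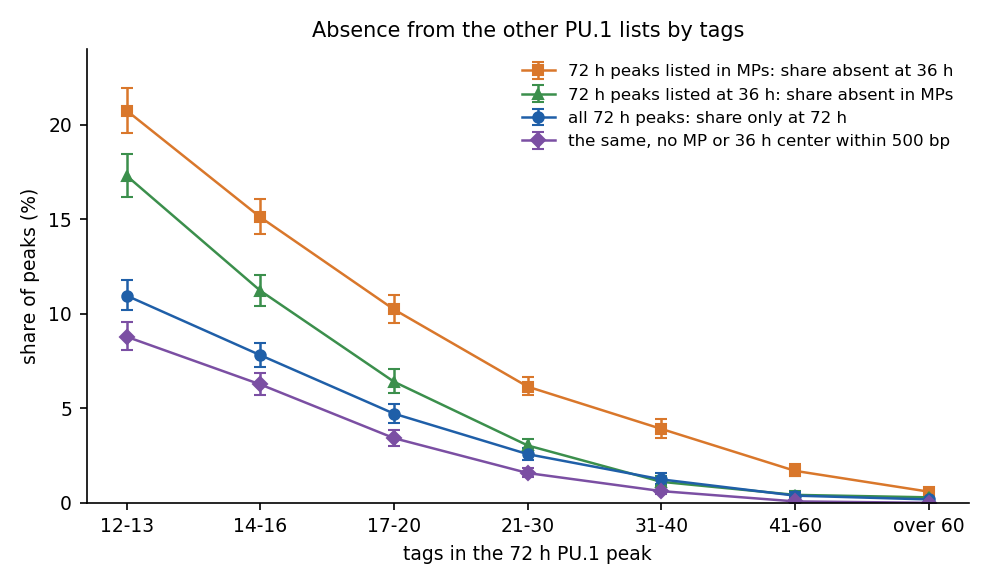
Share of 72 h PU.1 peaks absent from other PU.1 lists (y axis, percent, with 95% Wilson intervals) by the tags in the 72 h peak (x axis). All 4 shares fall with tags, and the share found only at 72 h goes from 10.96% at 12 or 13 tags to 0.1803% over 60 tags.

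Many of these sites lay beside an earlier PU.1 peak that they did not overlap. In 496 of the 1878 (26.41%) the center of an MP or 36 h PU.1 peak was within 500 bp. These are called neighboured below, and the other 1382, which are 2.73% of the 72 h peaks at the limit, are called isolated. Peaks were usually 150 bp wide in the MP and 72 h lists and 190 bp at 36 h, and the closest centers within 1 list were 370 bp apart in the MP and 72 h lists and 444 bp apart at 36 h, so each list held only 1 peak in a shorter stretch. In 292 of the 496 the 72 h list had no peak on the nearest earlier peak, which lay a median of 259 bp away, and the median scores of the pair were alike, 25.0 at 72 h and 24.5 for the earlier peak. In the other 204 the 72 h list had a peak there as well, a median of 429 bp away, and the earlier peak was the higher of the pair, with a median of 54.6 against 25.0.

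The highest sites were neighboured. All of the 10 highest, 41 of the 50 highest and all 15 sites over 60 tags had an earlier center within 500 bp, against 126 of 636 sites with 12 or 13 tags (19.81%). Of the isolated sites, 601 lay 500 bp to 2 kb from the nearest earlier center, 556 lay 2 to 10 kb away, and 225 lay farther, with scores of at most 52.9.

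**Figure D2:**
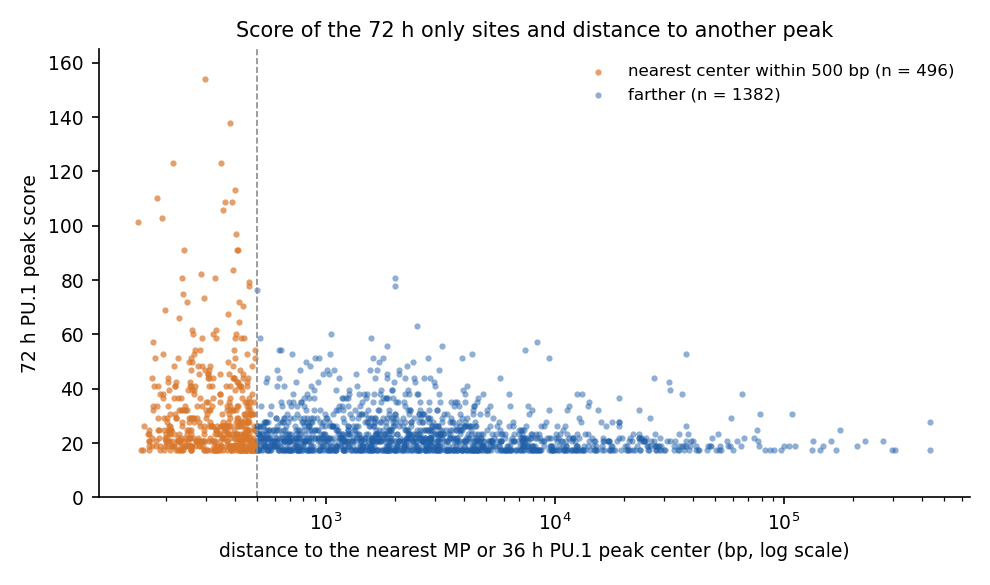
Score of each of the 1878 sites at 72 h (y axis, HOMER score) against the distance to the nearest MP or 36 h PU.1 peak center (x axis, bp, log scale). Each point is 1 site, the dashed line is at 500 bp, and all sites above a score of 80.8 lie to its left.

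The strongest site, with a score of 154.2, lay between genes, 270 bp upstream of Gm12148 and nearest to Mir146 in the list, the gene of a microRNA that restrains inflammatory signalling. An MP peak of score 145.0 lay 296 bp away and a 36 h peak of 190.7 lay 301 bp away, so all 3 lists held a strong peak within this stretch. The site in an intron of Grk5, a kinase of G protein-coupled receptors, scored 138.0, beside an MP peak of 141.6 and a 36 h peak of 104.9, both 381 bp away. The 72 h list held that position as well, with another peak 374 bp away.

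The Nav2 intron site scored 123.3 at 72 h, with earlier peaks of 119.4 in MPs and 109.4 at 36 h about 200 bp away (218 and 215 bp). The site near Klf6, which encodes a zinc finger transcription factor, scored 110.1, and the earlier peaks scored 151.8 in MPs and 125.6 at 36 h. At both sites all 3 lists thus held a strong peak within 500 bp. The site in an intron of Lcp1, which encodes the actin-bundling protein L-plastin, scored 113.1 and stood 408 bp from an MP peak of 228.6 and 403 bp from a 36 h peak of 164.1. Further sites of the 10 highest lay in an intron of Synj1 (108.7), near Gatad2a (108.7), in an exon of Sp100 (105.7) and in an intron of BC003331 near Tpr (102.8).

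Of the isolated sites, named here after their values were seen, the highest scored 80.8 and lay in a gene-poor region, 205705 bp from the start of Plcl1. The nearest MP peak was 35871 bp away and the nearest 36 h peak, of score 13.3, was 2011 bp away. It held the full PU.1 sequence GAGGAAGT. The next one, with 77.8, lay in an intron of Nfatc1, the gene of the main transcription factor of OC differentiation, 18211 bp downstream of the start site. An MP peak of 291.7 and a 36 h peak of 261.6 lay 2006 and 2007 bp from it, so this site stood in a locus already bound strongly in MPs. The site 1053 bp upstream of Phyh, a peroxisomal enzyme of fatty acid breakdown, scored 76.4 and was just past the 500 bp limit, with an MP peak of 104.1 at 510 bp and a 36 h peak of 100.5 at 503 bp.

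Lower isolated sites lay in an intron of Itgb5, an integrin subunit (63.1), near Ifngr2, a chain of the interferon gamma receptor (60.2), and in introns of Ap1b1 (58.7), Lipc (58.7) and Slc9a9 (57.3). The Slc9a9 site, in the gene of a sodium/proton exchanger, stood 11435 bp from an MP peak of 10.2 and 8360 bp from a 36 h peak of 11.8. Of the isolated sites in this and the preceding paragraph, all except those near Plcl1 and in Slc9a9 had a higher MP peak within 3 kb.

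Sites found at 1 time only were also seen in the other PU.1 lists. At the same score limit, 1813 of 47461 MP peaks were in no other PU.1 list (3.82%), as were 1272 of 46447 peaks at 36 h (2.74%). In MPs 492 of the 1813 were neighboured (27.14%), and at 36 h 293 of the 1272 were (23.03%). One tag was worth 1.7058 in MPs and 1.4781 at 36 h, so the same score meant 11 tags at least in MPs and 12 at 36 h. With 1 library per time, a change between stages and a difference between libraries cannot be told apart.

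Sequence, which the rule did not use, set the 72 h only sites apart from both other single-time sets. Plain letter motifs were looked for on either strand, up to 100 bp to each side of the center. The ETS core GGAAGT lies inside the PU.1 sequence GAGGAAGT, and the NFAT sequence TGGAAA shares the GGAA core. Shares were compared by Mantel-Haenszel odds ratios over 7 classes of tags, with 95% intervals and no p. Of the 1813 MP only sites, 1452 had at least 12 tags, and the rest, with 11, were put in the lowest class. Tags were thus not fully matched against MP only sites. A match describes the letters and not binding of the factor.

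AP-1 matches (TGANTCA) were rare in the 72 h only sites. They occurred in 107 of 1878 (5.698%, 4.737 to 6.839), in 11.90% of the sites listed at all 3 times and in 11.26% of all 72 h peaks. The odds ratio against sites of all 3 times was 0.444 (0.364 to 0.543). In the 36 h only sites the share was 28.62% (26.20 to 31.16) and in the MP only sites 12.36%, with odds ratios of the 72 h only sites against them of 0.150 (0.119 to 0.189) and 0.432 (0.339 to 0.550). The deficit was seen in isolated sites alone, where 5.427% had a match, and within each tag class up to 40 tags. In sites with 12 or 13 tags, for example, 5.660% of 636 had one, against 12.35% of 3513 sites of all 3 times.

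The 72 h peaks that were listed at 1 other time were also compared, after the data were seen. Peaks listed at 36 h and 72 h but not in MPs had an AP-1 match in 10.09% of 2130, and the odds ratio of the 72 h only sites against them was 0.540 (0.425 to 0.688). Peaks listed in MPs and at 72 h but not at 36 h had one in 6.996% of 3402, and the interval of that odds ratio, 0.808 (0.637 to 1.02), included 1. In AP-1 content the 72 h only sites thus differed from peaks shared with 36 h, and no such difference was shown from peaks shared with MPs.

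The composite ETS-IRF sequence GAANNGAAA, bound by PU.1 together with IRF4 or IRF8, was intermediate. It was found in 10.06% of the 72 h only sites (8.784 to 11.51), in 18.64% of the MP only sites and in 5.818% of the 36 h only sites. Odds ratios were 0.483 (0.398 to 0.586) against MP only sites and 1.77 (1.34 to 2.34) against 36 h only sites. Against sites of all 3 times, at 13.65%, the odds ratio was 0.868 (0.742 to 1.02), and 0.730 (0.626 to 0.851) within classes of GC content. C/EBP matches (TTGCNNAA) were in 10.76% of the 72 h only sites and 6.840% of the 36 h only sites, with an odds ratio of 1.63 (1.25 to 2.12). Against sites of all 3 times the C/EBP odds ratio was 1.04 (0.891 to 1.21). Peaks shared only with 36 h had ETS-IRF in 7.465% (odds ratio of the 72 h only sites 1.39, 1.12 to 1.74). Peaks shared only with MPs had it in 16.75% (0.575, 0.482 to 0.686). For C/EBP these values were 8.826% (1.25, 1.01 to 1.54) and 12.87% (0.824, 0.690 to 0.985). Both contrasts were thus not particular to single-time sites.

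RUNX matches (TGTGGT) were in 15.50% of the 72 h only sites and in 20.35% of the MP only sites, with an odds ratio of 0.696 (0.586 to 0.826). The KLF/SP sequence GGGCGG, common in promoters, ran the other way, in 7.561% of the 72 h only sites and 3.696% of the MP only sites (2.23, 1.65 to 3.01). GC content moved with this, with a median of 48.26% in the 72 h only and 44.78% in the MP only sites. Within classes of GC content in place of tags, the KLF/SP ratio was 1.28 (0.925 to 1.76), no longer clear of 1, while the ratios against MP only sites stayed at 0.467 (0.365 to 0.596) for AP-1 and 0.704 (0.591 to 0.838) for RUNX. Peaks shared only with 36 h had KLF/SP in 11.41% (odds ratio of the 72 h only sites 0.637, 0.512 to 0.791). Those shared only with MPs had it in 4.468% (1.69, 1.34 to 2.15). For RUNX both such intervals included 1. No difference was shown for NFAT, which was in 17.41% of the 72 h only sites and 18.08% of the sites of all 3 times (1.01, 0.890 to 1.14), or for the MITF E-box TCANGTG, in 9.425% and 10.26% (0.904, 0.769 to 1.06).

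PU.1's own sequence was less frequent than in sites of all 3 times. GAGGAAGT was in 16.77% of the 72 h only sites against 25.37% (0.714, 0.629 to 0.810), and the ETS core in 55.75% against 66.52% (0.755, 0.685 to 0.831). All 72 h peaks at the limit had them in 24.26% and 65.19%. The neighboured sites had the fewest PU.1 sequences, 11.29%, and the isolated sites had 18.74%, an odds ratio of 1.92 for isolated against neighboured (1.39 to 2.67). Against 36 h only sites, at 18.24%, the odds ratio of all 72 h only sites was 0.906 (0.751 to 1.09), so PU.1 sequences did not separate these 2 single-time sets.

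**Figure D3:**
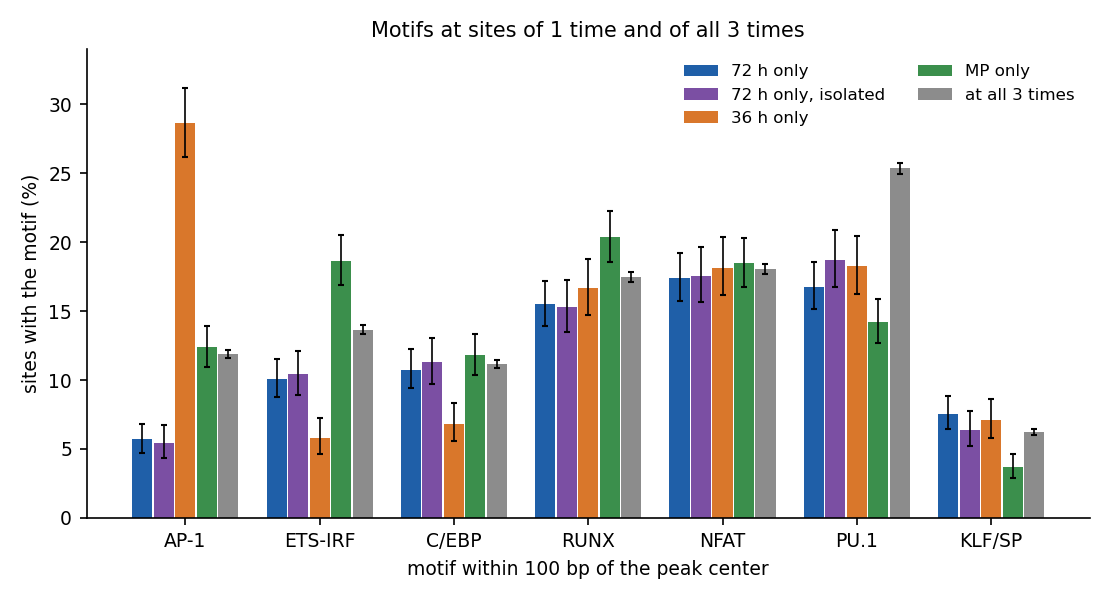
Share of sites with each motif within 100 bp of the peak center (y axis, percent; bars start at 0, lines are 95% Wilson intervals) for 5 sets of sites. AP-1 stands at 5.698% in the 72 h only sites and 28.62% in the 36 h only sites, and ETS-IRF at 10.06% in the 72 h only sites and 18.64% in the MP only sites.

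MITF peaks were almost absent from the 72 h only sites. Of the 1878, 4 overlapped a 72 h MITF peak (0.2130%, 0.08286 to 0.5464), 3 a 36 h MITF peak and 3 an MP MITF peak, while 8.17% of all 72 h PU.1 peaks at the limit and 9.484% of those listed at all 3 times overlapped a 72 h MITF peak. Most of this gap went with tags. In sites of all 3 times the share with MITF was 0.1423% at 12 or 13 tags and 40.16% over 60 tags, and weighted to the tag classes of the 72 h only sites it was 0.7753%. Within tag classes the odds ratio at 72 h was 0.248 (0.0916 to 0.673). A 72 h MITF peak overlapped 0.1655% of the MP only and 0.4717% of the 36 h only sites. Odds ratios of the 72 h only sites against these were 1.18 (0.251 to 5.56) and 0.389 (0.106 to 1.43). Both intervals included 1. So did those against 72 h peaks shared only with 36 h (0.870, 0.223 to 3.39) or only with MPs (0.483, 0.165 to 1.41). MITF scarcity was thus not shown to be particular to the 72 h only sites.

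All 4 sites with 72 h MITF were neighboured and had at least 40 tags. The Lcp1 site had a MITF score of 11.4 at 72 h and 20.4 at 36 h, and the others, listed for Cyp26b1, a retinoic acid-degrading enzyme, Pla2g10, a secreted phospholipase, and Ptpn18, a tyrosine phosphatase, each had 9.1, the lowest score in the MITF list. None of the 1382 isolated sites overlapped a 72 h MITF peak, for which a limit of 3 counts allows a share of up to 0.217% and the Wilson interval one of up to 0.2772%. Sites of all 3 times weighted to their tags had 0.3263%, above both limits, but this share has no interval and the difference was not tested. Tags were not matched within classes, and this MITF share rose from 0.8601% at 21 to 30 tags to 8.675% at 41 to 60. With 36 h MITF peaks, 1 isolated site overlapped (0.07236%) against 0.1867% in the weighted sites of all 3 times, and the interval of the odds ratio, 0.365 (0.0491 to 2.72), included 1. This overlap with 36 h MITF is also limited by the rule. Over 60 tags, where the MITF share was high, the 72 h only set had 15 sites and 1 overlap, and none of the 15 was isolated. This class was open, reaching 105 tags in the 72 h only sites and 243 in sites of all 3 times. Tags were thus not fully matched within it, which limits the odds ratios of MITF overlap.

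**Figure D4:**
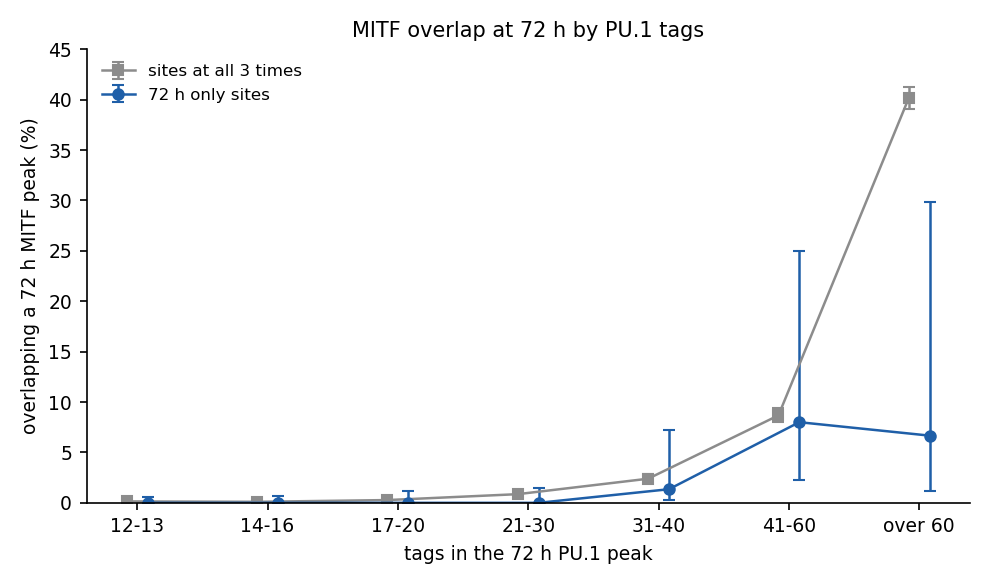
Share of sites overlapping a 72 h MITF peak (y axis, percent, with 95% Wilson intervals) by tags in the 72 h PU.1 peak (x axis), for 72 h only sites and sites listed at all 3 times. Both are near 0 up to 30 tags, and over 60 tags the sites of all 3 times reach 40.16% while 1 of 15 of the 72 h only sites overlaps.

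The 72 h only sites were mostly distal, as PU.1 peaks in general are. Of the 1878, 335 lay within 1 kb of a transcription start site (TSS; 17.84%, 16.17 to 19.63), 643 at 1 to 10 kb, 797 at 10 to 100 kb (42.44%) and 103 beyond. Introns held 49.09%, intergenic sequence 43.34% and exons 7.56%, and the median distance to a TSS was 8958.5 bp. The share within 1 kb was 15.01% in sites of all 3 times (odds ratio 1.13, 0.998 to 1.28) and 11.03% in MP only sites (1.77, 1.46 to 2.14, and 1.25, 1.02 to 1.53, within classes of GC content). In 36 h only sites it was 17.14%, and no difference from them was shown (1.05, 0.872 to 1.27).

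The neighboured sites were nearer to TSSs than the isolated ones. Within 1 kb lay 24.19% of the neighboured and 15.56% of the isolated sites (odds ratio for isolated against neighboured 0.566, 0.435 to 0.737). Neighboured sites also differed from sites of all 3 times (1.68, 1.36 to 2.07), and for isolated sites no difference was shown (0.951, 0.817 to 1.11). Another 72 h peak lay within 1 kb of 28.38% of the 72 h only sites and of 16.11% of the sites of all 3 times, and in isolated sites alone this share was 20.41%. Another peak of their own list lay within 1 kb of 29.67% of the MP only sites (21.35% of the isolated ones). In the 36 h only sites this share was 16.04%.

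**Figure D5:**
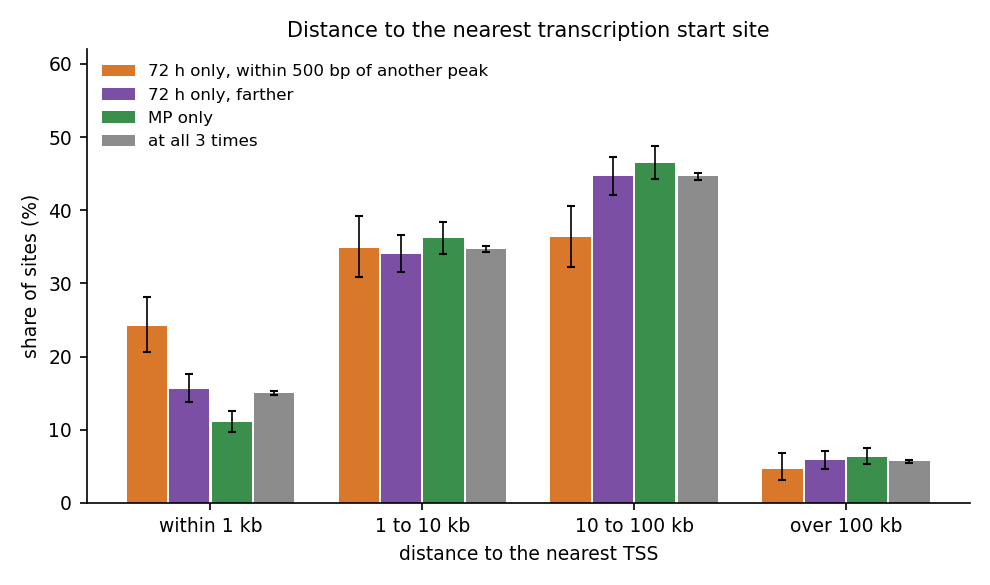
Share of sites by distance to the nearest TSS (y axis, percent; bars start at 0, lines are 95% Wilson intervals) for neighboured and isolated 72 h only sites, MP only sites and sites of all 3 times. Within 1 kb the neighboured sites stand at 24.19%, the isolated sites at 15.56% and the MP only sites at 11.03%.

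The list names a nearest RefSeq gene for each peak, and 1696 of the 1878 sites had one with a symbol (90.31%). These were 1464 genes, 12.27% of the 11930 genes named by 72 h peaks at the limit. Of the 1464, 1278 had 1 site and 1328 (90.71%) also had a site listed at all 3 times. Only 38 were named by no MP or 36 h PU.1 peak. Of these 38 genes, Abhd4, a lipid hydrolase, and Ints1, a subunit of the Integrator complex, had the highest sites, both with 33.8. The Ints1 site lay 68 bp upstream of its TSS, and the nearest MP peak was 13960 bp away.

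The gene with most sites was Nrp2, a receptor of semaphorins and VEGF, with 6 of its 34 peaks at the limit. Their scores ran from 25.0 to 55.8 over 83.76 kb, and 5 were isolated. Kctd12 had 5 of 32 peaks, Tbl1xr1, a corepressor subunit, 5 of 41, and Nr3c1, the glucocorticoid receptor, 5 of 27. Ranking by the number of sites favours genes with many peaks, and over all 72 h peaks the share was 3.71%. Scimp, a transmembrane adaptor of immune cells, had 4 of its 9 peaks at the limit, with scores from 35.2 to 49.9. Pik3cg, the catalytic subunit of a leukocyte phosphoinositide 3-kinase, had 4 of 19, all isolated and within 7.225 kb. In all, 161 sites (8.573%) had another 72 h only site within 10 kb. Over chromosomes the share of peaks that were 72 h only went from 2.701% on chromosome 5 to 4.428% on chromosome 6.

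No list of genes of OC biology was shown to have more or fewer of these sites than the background of 3.71%, which the Wilson interval of each took in. Over all 11 lists of genes, 58 of 1333 peaks at the limit were 72 h only (4.351%). These lists include macrophage surface and B and T lymphocyte genes, so this is not a share of OC genes alone. Genes of bone resorption and acid secretion had 2 of 77. One was the Mmp9 site, 91 bp upstream of the TSS of this matrix-degrading gelatinase, with a score of 27.9. Its nearest earlier peaks were 1745 bp away in MPs (27.3) and 1738 bp away at 36 h (32.5). The other lay 14991 bp upstream of Cst3, the cysteine protease inhibitor cystatin C, with 36.7.

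OC transcription factors had 9 of 244 peaks. Beside the Nfatc1 site these included one near Prdm1, a repressor of inhibitors of OC formation, with 44.1, which was neighboured by an MP peak of 52.9 and a 36 h peak of 51.7. A site 45047 bp downstream of the start of Fos, a subunit of AP-1, had 23.5. Repressors of OC differentiation had 6 of 162, with 77.8 in an intron of Ikzf1, the gene of the zinc finger factor Ikaros, and 48.5 in an intron of Etv6, an ETS-family repressor. Both of these were neighboured and stood beside earlier peaks that were higher.

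RANK and CSF1 signalling had 9 of 164. A site 2464 bp upstream of Tnfrsf11a, which encodes the RANKL receptor RANK, had 22.0 and an AP-1 match, and its nearest earlier peaks, at 1717 bp in MPs and 1693 bp at 36 h, were low (10.2 and 17.7). A site in an intron of Traf2, an adaptor of TNF receptors, had 39.6 beside a 36 h peak of 39.9 at 208 bp. Costimulatory receptors and their kinases had 3 of 116, at Fcgr2b (30.8), Trem2 (29.4) and Syk (26.4), all isolated.

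Cell fusion genes had 6 of 97. The highest was listed for Cd47, the ligand of SIRPα, with 74.9, and was neighboured by an MP peak of 75.1 at 238 bp. Dcstamp and Ocstamp, the transmembrane proteins needed for OC fusion, each had a site of 19.1, in introns of the adjoining genes Rims2 and Slc13a3, and the Ocstamp site was isolated. Genes of adhesion and podosomes had 5 of 152, the highest in an intron of Dock5 (29.4), an activator of Rac. Genes of metabolism and iron had 3 of 60, at Slc40a1 (19.1), Hk1 (17.6) and Slc2a1 (17.6), and inflammatory cytokines and chemokines had 2 of 109, near Ccl4 (27.9) and Il10 (26.4).

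Lists of other cells were included as well. Macrophage surface genes had 9 of 117 (7.692%, 4.100 to 13.97), with sites near Adgre1, which encodes F4/80 (49.9), and in introns of Tlr4 (41.1) and Mertk (25.0), all 3 isolated. B and T lymphocyte genes had 4 of 35 (11.43%, 4.535 to 25.95), led by Zap70 (23.5), Cd3d (19.1) and Bcl11b (17.6), all under 17 tags. Both intervals lie above 3.71%, each is 1 of 11 looked at, and no set test was run. By the nearest gene of GENCODE the macrophage share was 6.731% (3.298 to 13.25), an interval that takes in the background, and the lymphocyte share was 12.50% of 24 peaks.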

How the data were processed

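PU.1, MITF and IgG ChIP-Seq libraries of MPs and of cells after 36 and 72 h of RANKL were deposited as 1 peak list each, 7 in all, with no replicates. The authors aligned reads to mm9 with Bowtie2 and called peaks with HOMER, and the deposited lists give each peak's position, score and nearest RefSeq transcript. The score column is the deposited HOMER score, and it was a whole multiple of 1 step in each list (largest deviation 0.0643), taken as 1 tag. Read depth was not given in the sources used here. The sites and the gene and motif lists were chosen with earlier results of these data known. Overlap meant 1 bp. TSS distances and gene classes used GENCODE vM1 on mm9, and motifs were read from that genome. RefSeq accessions were turned into symbols by a RefSeq table of another build, from which no coordinate was taken. Named sites were the 10 highest, those with the highest 72 h MITF score, genes with most sites and up to 3 genes per list. One site named by this rule is not reported here. Shares have Wilson intervals. Odds ratios with their intervals, over classes of tags or of GC content, were made in Python 3.11.15 and tested on simulated data. No p was computed. IgG was made in MPs only, and none of the 1878 sites overlapped an IgG peak.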

Additional observations from a re-analysis of the deposited data

How the results depend on the processing

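Of 136 alternative values, 123 kept the standing of their interval against 1 (or stayed within 1.5 times the count) and none reversed. Ratios whose interval held 1 could still change side. For sites within 1 kb of a TSS, for example, the ratio was 1.13 in all 72 h only sites and 0.951 in isolated sites. A limit of 20 tags left 435 of the 1878 sites, and the same score of 29.4 left 472 MP only and 235 36 h only sites. Removing neighboured sites left 1382, and a reciprocal overlap of 50% gave 2063. The odds ratio of MITF overlap against sites of all 3 times had an interval that took in 1 at 36 h in isolated sites (0.365), with a reciprocal overlap (0.527) and with MITF peaks of at least 2 times the lowest score (0.359), and in MPs with those MITF peaks (0.367). Overlap with MP and 36 h MITF peaks is limited in part by the rule itself. A reciprocal overlap took the intervals clear of 1 for sites within 1 kb of a TSS (1.24), at 10 to 100 kb (0.866) and with KLF/SP (1.22), and strata of GC content did so for ETS-IRF (0.730) and RUNX (0.869). The cause was not tested. The ratios for AP-1, PU.1 and ETS kept their side under every alternative run. With all peaks over 30 tags in 1 class, tried first and replaced after the data were seen, the ratio for 72 h MITF was 0.123 in place of 0.248. For isolated sites without any MITF overlap no ratio could be had. Nor could one be had for 72 h MITF peaks of at least 2 times the lowest score, which no 72 h only site overlapped. The lists hold no TSS distance of their own, so that alternative gave no value. No paired analysis was possible because each group has 1 library. The lowest listed scores were 10.2 in MPs and 10.3 at 36 h, so absence from a list does not show absence of tags.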
